A study of Rattus norvegicus with 8 samples.

Results

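The genes of the cytoplasmic ribosomal proteins were followed across 8 short-oligonucleotide arrays of whole rat brain. They were taken as every probe set (a group of short probes that read 1 transcript) with a single gene symbol starting with Rpl, for the large subunit, or Rps, for the small subunit, leaving out the 2 probe sets of the kinase Rps6kb1. This gave 64 of the 8799 probe sets on the array, for 44 of the 4736 genes that the array names by a single symbol: 43 probe sets of 30 Rpl genes and 21 probe sets of 14 Rps genes. All 64 passed the filter on low signal, and 17 genes were read by more than 1 probe set. A further 35 probe sets carried several symbols, of ribosomal proteins or unnamed loci, and were not counted as members. Rps2-ps1, Rps4x-ps9, Rpl19l4, Rplp1l3 and Rpl36al1 carry names of pseudogenes or like copies, and ribosomal protein genes have many near-identical copies in the genome, so how far these readings are split between copies is uncertain.

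The labels describe total RNA from whole brains of intubated rats. The 3 control rats breathed the volatile anaesthetic isoflurane for 3 min and were then perfused with cold saline. The other rats were given 2% isoflurane, 2 of them for 1 hr and 3 of them for 2 hr. The labels do not say whether these rats were perfused, nor their strain, age or sex, and a group without isoflurane was not analysed here, so the control is itself a brief exposure. No animal numbers are given, so the spread between samples of a group may be partly technical. Values are the deposited linear intensities, which have no absolute unit, or their log2. Intensities of different probe sets depend on the probes and were not set against each other as levels of transcript.

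A ribosome is built from ribosomal RNA and about equal amounts of each ribosomal protein, and cells keep the output of these genes matched to one another and to growth. Many of the messenger RNAs begin with a C followed by a run of pyrimidines, the 5' terminal oligopyrimidine (5' TOP) tract, through which the kinase mTOR and the RNA-binding protein Larp1 regulate their translation and stability. In the brain, ribosomal protein messenger RNAs are abundant in neurons and glia and are also carried into dendrites and axons, where protein is made near synapses.

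The start sites are shown first because the tract is the sequence feature by which these genes are known. RefSeq's promoter table for the assembly GRCr8 held 37 of the 44 genes. Each line gives 30 bases on the gene's own strand, 10 before the annotated start and 20 from it, with capitals for a C at the start followed by at least 4 further pyrimidines.
Rpl31: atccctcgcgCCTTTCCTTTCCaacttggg (chr9:49143101-49143130, plus strand)
Rpl19: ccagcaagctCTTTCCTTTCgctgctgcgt (chr10:83519054-83519083, plus strand)
Rpl22: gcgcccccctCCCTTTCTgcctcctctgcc (chr5:168117951-168117980, plus strand)
Rpl35a: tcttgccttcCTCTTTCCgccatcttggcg (chr11:81235002-81235031, minus strand)
Rps15: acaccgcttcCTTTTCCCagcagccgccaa (chr7:10068096-10068125, minus strand)
Rpl39: taatcgcgttCTTCCggcctgtcctttctc (chrX:121195877-121195906, minus strand)
Rplp0: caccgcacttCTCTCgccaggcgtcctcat (chr12:46718371-46718400, minus strand)
The next 3 are shown for contrast, because no such tract starts at their annotated first base.
Rps16: aaaatcggtcggggtggccccaagctttcc (chr1:92770648-92770677, plus strand)
Rps3: ttcagcggcgcgcggcagcaagatggcggt (chr1:163195757-163195786, minus strand)
Rpl3l: ctggtgcctggtggggaggtcccttcctaa (chr10:14258436-14258465, plus strand)
The tract began exactly at the annotated start in 11 of the 37 genes (29.7%), against 881 of all 33469 promoters of the table (2.63%). Within 10 bases of the start it was found in 23 of the 37 (62.2%), against 28.9% of all promoters. In the 300 bases of each entry, TCTCGCGA occurred on either strand in 7 of the 37 (18.9%) and in 0.855% of all promoters. TTCCGG, the core of ETS factor motifs, occurred on either strand in 35.1% and in 15.0% of all promoters. The TATA box letters TATAAA were as frequent among the 37 genes (13.5%) as among all promoters (14.2%), and the E box letters CACGTG were found in 5.41% and 6.42%. An annotated start can lie some bases from the start used in brain, and these motifs were chosen after earlier results were known, so the shares are descriptions.

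Most of the 64 probe sets moved together over the full set of arrays. The level of the 64 differed more between arrays of a group than between groups. Their mean log2 level was 9.557, 9.350 and 10.83 on control replicates 1 to 3, 10.39 and 9.705 on the 1 hr replicates, and 9.429, 9.450 and 10.47 on the 2 hr replicates 1 to 3. The lowest and highest arrays, control replicates 2 and 3, belonged to the same group and lay 1.48 log2 units apart. The group means were 9.913 for the controls (SD 0.801, n = 3), 10.05 after 1 hr (SD 0.483, n = 2) and 9.785 after 2 hr (SD 0.597, n = 3). The group means thus differed by less than the pooled SD within groups, which was 0.668.

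Control replicate 3, 1 hr replicate 1 and 2 hr replicate 3, 1 array of each group, were the 3 highest arrays for 42 of the 64 probe sets (65.6%). The same was true of 622 of all 7770 tested probe sets (8.01%). These arrays were known from earlier work on these data to stand apart, partly by these genes, so the count is a description. Control replicate 3 was the highest array for 42 members, 2 hr replicate 3 for 12, 1 hr replicate 1 for 9 and 1 hr replicate 2 for 1. The lowest array was control replicate 2 for 23 members, 2 hr replicate 2 for 12, control replicate 1 for 10 and 2 hr replicate 1 for 9. The highest array exceeded the lowest by a median of 3.71-fold over the 64 probe sets, with a range from 1.55-fold to 70.8-fold. With the 3 arrays left out, the range of the mean level over the other 5 arrays was 0.355 log2 units.

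**Figure D1:**
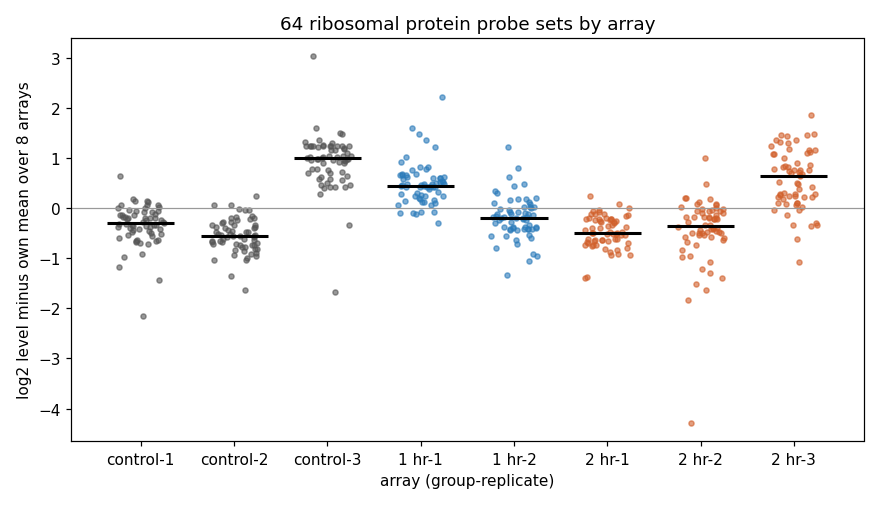
Each point is 1 of the 64 ribosomal protein probe sets, plotted as its log2 level on an array minus its own mean over the 8 arrays; black bars mark the median of each array and colours the 3 groups. The medians were 0.99 for control replicate 3, 0.45 for 1 hr replicate 1, 0.65 for 2 hr replicate 3, and from -0.55 to -0.20 on the other arrays.

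Both subunits followed this order. The Rpl probe sets had a range of 1.43 log2 units between their lowest and highest array means, and 29 of 43 (67.4%) had the 3 arrays highest. The Rps probe sets had a range of 1.64, and 13 of 21 (61.9%) had them highest. The several-symbol ribosomal protein probe sets, 34 of which were tested, had a range of 1.65, with 24 of 34 (70.6%) in the same order. They too carry symbols of ribosomal proteins, and the 3 arrays were known beforehand, so this count is also a description. The members' share of the summed intensity of an array was 11.3% for control replicate 3, 8.27% for 1 hr replicate 1, 9.49% for 2 hr replicate 3, and 4.55% to 5.97% on the other 5.

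Bright probe sets in general differed between these arrays, and the members were set beside non-members of like brightness. The highest single intensity, on an unnamed probe set, was 24393.4, 23009.4 and 37711.8 on the 3 arrays, against 3504.2 to 12444.6 on the others. The 596 other probe sets lay at or above the members' lower quartile of brightness, a mean log2 level of 9.2321. Their array means ran from 10.21 to 10.71, a range of 0.498, and 22.5% had the 3 arrays highest. Only the 64 members were left out of the 596, so bright several-symbol ribosomal protein probe sets remained among them. In the classes of brightness that follow, the others leave out the several-symbol ribosomal protein probe sets too. Between mean log2 levels of 10 and 11, 10 of 13 members (76.9%) had the 3 arrays highest, against 23 of 191 others. From 11 to 12, it was 16 of 21 members (76.2%) against 29 of 104 others (27.9%). In the brightest class, 12 to 13, it was 8 of 8 members and 30 of 42 others (71.4%). On 2 hr replicate 2 the medians of that class fell below their own means in both sets, at -1.35 for the members and -1.72 for the others. After quantile normalization, which gives every array the same distribution, the members with the 3 arrays highest numbered 24 of 64 (37.5%) and the range of their mean was 1.04. In that scaling the shares were 46.2% of members against 7.85% of others from 10 to 11, 28.6% against 2.88% from 11 to 12, and 37.5% against 11.9% from 12 to 13.

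**Figure D2:**
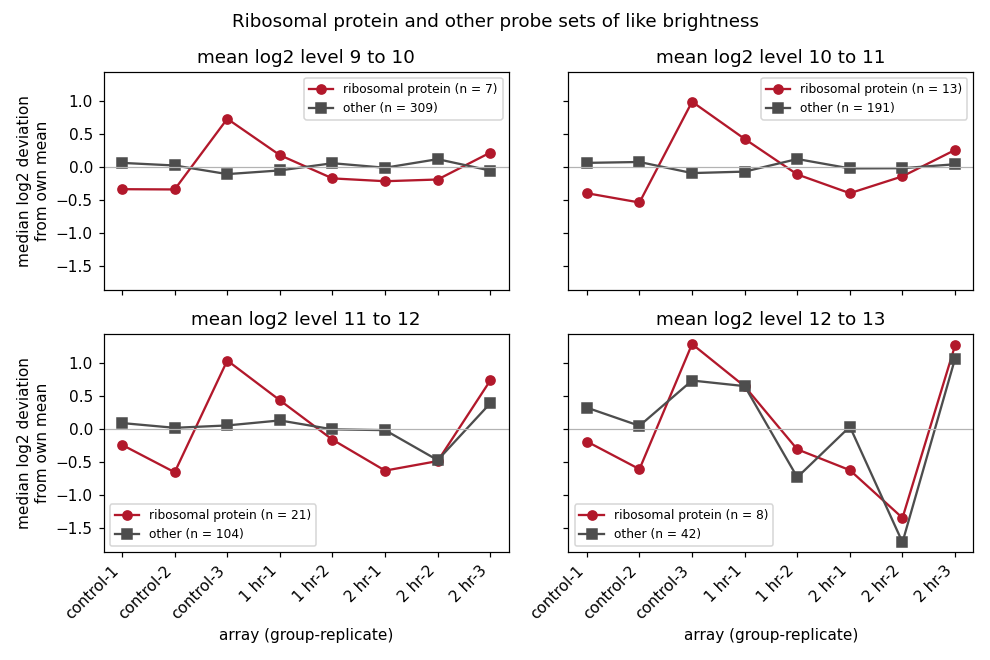
Each panel is 1 class of mean log2 level and plots, for each array, the median log2 deviation of the probe sets from their own means. Circles mark the ribosomal protein probe sets. Squares mark the other tested probe sets, leaving out the several-symbol ribosomal protein ones. On control replicate 3 the member median was 0.99, 1.04 and 1.29 in the upper 3 classes, against -0.10, 0.05 and 0.74 for the others.

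Other measures differed between arrays too. The summed intensity of the 11 tested probe sets of neuron markers (6 of 8 listed genes, Snap25 among the list) ran from 1570 to 4680 in the controls, 2510 to 3500 after 1 hr and 2240 to 4820 after 2 hr. Their mean log2 level was lowest on control replicate 3, at 5.990, where the ribosomal protein mean was highest, and ran from 6.702 to 7.762 on the other arrays. The marker means were also lowest there for oligodendrocytes (8.295 against 8.925 to 9.369), astrocytes (6.391 against 6.465 to 7.264), microglia (5.102 against 5.152 to 6.291) and meninges (6.236 against 6.764 to 7.064). They were not lowest there for endothelial cells (5.149), choroid plexus (7.187) or pituitary (4.72), and the blood mean was highest there (7.379). By summed intensity, the neuron markers alone were lowest on control replicate 3. The sums there were 8930 for oligodendrocytes, 6670 for astrocytes, 982 for microglia and 3640 for meninges. The lowest sums, on other arrays, were 8080, 3640, 788 and 3270. Of the neuron probe sets, 9.09% lay above their own mean on control replicate 3, and of the oligodendrocyte ones 27.3%. For astrocytes and microglia it was 36.4% each, and for meninges 18.2%. The share was lower on 1 hr replicate 1 for astrocytes (27.3%) and on control replicates 1 and 2 for microglia (18.2% and 27.3%). For oligodendrocytes it was also 27.3% on 2 hr replicate 3. The actin controls, whose 3' over 5' ratio is a sign of RNA quality, gave a ratio of 2.89 for control replicate 3, 1.46 for 1 hr replicate 1, 1.57 for 2 hr replicate 3 and 1.04 to 1.68 for the others. The GAPDH ratio was also highest for control replicate 3, at 1.56 against 0.884 to 1.39, whereas the hexokinase ratio was lowest there, at 1.91 against 2.01 to 6.53. Astrocyte markers (5 of 6 genes) summed to 3640 to 7870 over the arrays and microglia markers (5 of 6) to 788 to 1820, so the main cell types of brain were read on each array. Choroid plexus markers summed to 968 to 1480 in controls, 1250 to 7580 after 1 hr and 1090 to 2130 after 2 hr. Pituitary markers summed to 286 to 292, 349 to 563 and 264 to 996, with 2 probe sets of Prl at the floor on all arrays, and blood markers to 79.4 to 371, 228 to 232 and 93.7 to 242. The part of tissue composition and RNA quality in the members' order was not tested. In whole tissue, fewer cells of a type and less RNA per cell cannot be told apart.

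**Figure D3:**
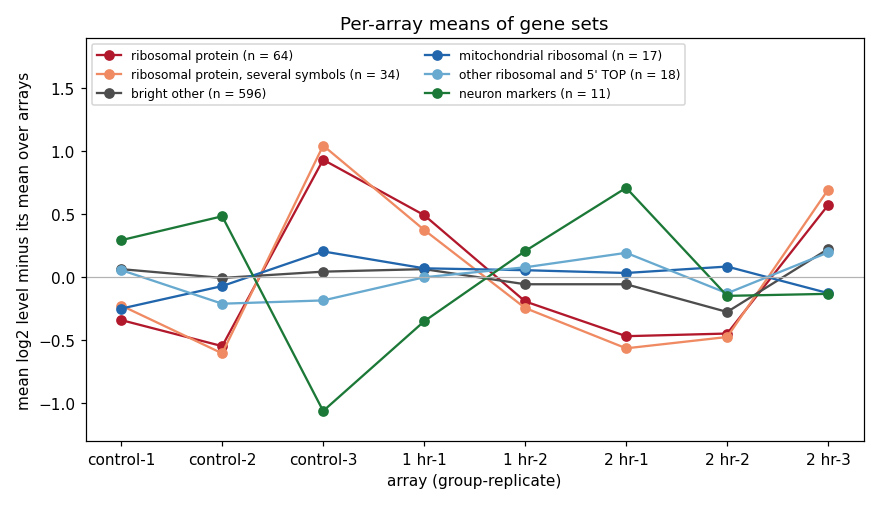
Lines give, per array, the mean log2 level of a set of probe sets minus its mean over the 8 arrays, for the 64 ribosomal protein probe sets, the 34 with several symbols, the 596 bright others, 17 mitochondrial ribosomal, 18 other ribosomal or 5' TOP and 11 neuron marker probe sets. The first 2 sets peak on control replicate 3, with ranges of 1.48 and 1.65, where the neuron markers are lowest.

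Members at the centre of the pattern illustrate it. Likeness was measured as Pearson's r over the 8 arrays with the mean of the other members, and it was highest for Rpl27 (0.979), Rps23 (0.977), Rpl13a (0.975) and Rpl27a (0.971). The arrays fall into sets and share their scaling, so r describes that division more than it does a graded relation. Rps23, a protein of the decoding centre, read 2545.9, 2293.7 and 6819.7 in the controls, 4266.9 and 2798.5 after 1 hr, and 1823.4, 2384.1 and 5236.3 after 2 hr. Rpl27 read 2576.0, 1691.6 and 5917.0 in the controls, 3934.8 and 2736.4 after 1 hr, and 1880.6, 1905.2 and 4904.9 after 2 hr. Rpl13a, which also takes part in silencing of inflammatory messenger RNAs, read 1916.5, 1416.6 and 5831.1, then 3364.9 and 1873.9, then 1526.7, 1774.3 and 5420.1. In each of these probe sets the 3 groups overlapped, and the lowest and highest values of the controls alone lay far apart. The values of Rpl27 and Rpl13a are those of 1 of 2 probe sets. The other probe set had an r of 0.902 for Rpl27 and 0.87 for Rpl13a, without the 3 arrays highest. In that of Rpl13a, all 2 hr values lay below both 1 hr values. Of the 64 members, 46 had an r above 0.8 and 58 an r above 0.5. The median r was 0.891 over the 8 arrays, but 0.452 over the 5 arrays left without the 3 high ones. Between pairs of members the median r was 0.736 over the 8 arrays and 0.189 over those 5.

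Of the large subunit proteins around the exit of the polypeptide tunnel, 7 of 8 listed genes were members (Rpl17, Rpl19, Rpl22, Rpl26, Rpl31, Rpl35 and Rpl39), and all 9 of their probe sets had the 3 arrays highest. Rpl22 read 1020.6, 1428.5 and 5716.6 in the controls, 3959.0 and 1566.9 after 1 hr, and 1380.6, 2353.6 and 4919.3 after 2 hr. Rpl39, one of the shortest ribosomal proteins, read 587.0, 809.7 and 2314.8, then 1433.2 and 706.4, then 917.2, 997.7 and 3151.8. Each group thus held at least 1 low array and 1 high array for both genes. The fitted log2 change of the 9 probe sets from control to 2 hr ran from -0.36 to 0.46, with a median of 0.03.

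The 5S ribonucleoprotein members Rpl5 and Rpl11, which bind and inhibit Mdm2 when ribosome assembly is disturbed, had 3 probe sets, 1 of them in the common order. Rpl11 read 3272.5, 2261.3 and 6011.3 in the controls, 3202.7 and 2211.6 after 1 hr, and 2511.0, 2262.0 and 3375.9 after 2 hr by its first probe set. Rpl5 was among the dimmest members, at 24.9, 15.2 and 36.7, then 41.2 and 20.1, then 22.0, 20.2 and 24.8. The array also carries a control for their RNA partner, 5S ribosomal RNA, which read 12.9 to 23.7 on control replicates 1 and 2 and 2 hr replicate 1 and 70.4 to 141.7 on the other arrays, a division that is not that of the members. Rplp0, the base of the stalk that recruits translation factors, read 3938.0, 3070.0 and 5875.2, then 3881.6 and 3534.0, then 3004.8, 1504.0 and 4836.3, so that 2 hr replicate 2 alone lay far below the rest.

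Of the other large subunit members, Rpl41, whose protein is only a short peptide, read 375.0, 417.5 and 1722.0 in the controls, 791.4 and 471.3 after 1 hr, and 430.7, 435.2 and 1028.1 after 2 hr. Rpl35a, a gene mutated in Diamond-Blackfan anaemia, read 968.8, 843.7 and 3760.6, then 2405.1 and 1367.2, then 839.8, 1406.9 and 3605.1. Both had the same 3 high arrays, 1 in each group. Rpl14, Rpl18, both Rpl24 probe sets, Rpl36, Rpl36al1 and Rpl7a were in the same order, with ranges over arrays from 2.25-fold for Rpl14 to 4.39-fold for Rpl24. The dimmest member, Rplp1l3, lay at or under the floor of 9.1 on 5 arrays and above it on the same 3 high arrays, at 12.7, 16.5 and 11.1. In 1 probe set each of Rpl6 and Rpl27, and in Rps10, 1 hr replicate 2 lay above 1 hr replicate 1, which alone kept them from the common order. The remaining probe sets outside it were those of Rpl3, Rpl3l, Rpl4, Rpl5, Rpl19l4, Rpl30, Rplp0, Rps2-ps1, Rps3a and Rps27l, 2 of Rps15, and 1 each of Rpl11, Rpl13a, Rpl21 and Rps6, which with the former made 22.

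In the small subunit, Rps3 and Rps23 of the messenger RNA entry and decoding site had 3 probe sets, all in the common order. Rpsa, known also as the laminin receptor precursor, had 2 of 2. Of the proteins of the head, Rps10, Rps15, Rps16 and Rps29 had 7 probe sets with 4 in that order, and their fitted changes from control to 2 hr ran from -1.54 to -0.12. Rps16 read 5577.5, 3346.1 and 14872.9 in the controls, 8207.6 and 4013.6 after 1 hr, and 3183.8, 1713.5 and 13198.2 after 2 hr. Both its highest values fell on arrays that were high for the whole family, and the groups overlapped.

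Rps29, a zinc-binding protein of the head, held the brightest member and the widest spread. Its first probe set, X59051cds_s_at, read 9628.7, 6413.7 and 18372.4 in the controls, 15728.5 and 2419.4 after 1 hr, and 6533.3, 315.1 and 22296.3 after 2 hr. Its second, rc_AA965264_at, read 4265.4, 4685.6 and 10626.9, then 9682.0 and 4595.6, then 4490.3, 1522.0 and 12193.3. Both probe sets were lowest on 2 hr replicate 2, but the range over arrays was 70.8-fold for the first and 8.01-fold for the second. The 2 hr minus control change of -1.54 (SE 1.42) by the first probe set was 0.21 with 2 hr replicate 2 left out. By the second probe set the change was -0.45 (SE 0.82). On 2 hr replicate 2 no probe set of the whole array exceeded 3504.2, a reading of Rpl3, and the highest reading on 1 hr replicate 2 was 5080.7.

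The 8 members least like the others were probe sets of Rpl30, Rpl21, Rps2-ps1, Rps6, Rpl3l and Rpl3. The lowest r, -0.15, belonged to Rpl30, a protein at the interface of the subunits, with readings of 45.3, 39.5 and 12.8 in the controls, 113.7 and 46.0 after 1 hr, and 15.8, 81.9 and 49.5 after 2 hr. It was the probe set with its lowest value on control replicate 3, where 42 members had their highest. The next lowest were 1 of 4 probe sets of Rpl21 (r 0.29) and both probe sets of Rps2-ps1 (0.31 and 0.36), of which 1 lay at the floor on 6 arrays and the other on 2. The other 3 probe sets of Rpl21 did have the 3 arrays highest.

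Rpl3, a core protein near the peptidyl transferase centre, was bright but did not follow the family. Its probe set X62166cds_s_at read 2173.2, 1354.5 and 3097.1 in the controls, 1845.8 and 2298.0 after 1 hr, and 1638.9, 2101.6 and 1946.4 after 2 hr. Its other probe set read 2575.4, 2348.1 and 4964.1, then 2474.8 and 4156.9, then 2137.9, 3504.2 and 3190.8. Both had control replicate 3 highest but 1 hr replicate 1 and 2 hr replicate 3 among the rest, and the values of r were 0.59 and 0.51. The paralogs Rpl3l, the form of Rpl3 known from striated muscle, and Rps27l, a p53-induced relative of Rps27, had 3 probe sets, none with the 3 arrays highest.

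Rps6, the substrate of the S6 kinases downstream of mTOR, was read differently by its 2 probe sets. M29358_at read 627.0, 585.7 and 1075.4 in the controls, 644.0 and 844.1 after 1 hr, and 628.9, 656.4 and 555.1 after 2 hr, with an r of 0.45. M29358_g_at read 1034.7, 1371.4 and 2701.3, then 2321.5 and 1538.1, then 1415.8, 1544.9 and 1919.1, with the 3 arrays highest. For Rps15, a protein of the head near the decoding site, 3 probe sets gave 3 patterns. E01534cds_s_at followed the family, at 4013.1, 2562.3 and 10633.7, then 6420.2 and 2225.6, then 2633.1, 2121.6 and 10745.9. The probe set ending in _r_at varied by 1.55-fold in all, the least of the 64. The probe set ending in _i_at read 90.5, 78.5 and 2001.9, then 570.6 and 429.9, then 93.2, 344.2 and 116.7, a range of 25.5-fold with 2001.9 on a single control array. The suffixes _i_at and _r_at mark probe sets of incomplete or less strictly chosen probes, and _s_at, borne by 14 members, marks probes that can read more than 1 related transcript.

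**Figure D4:**
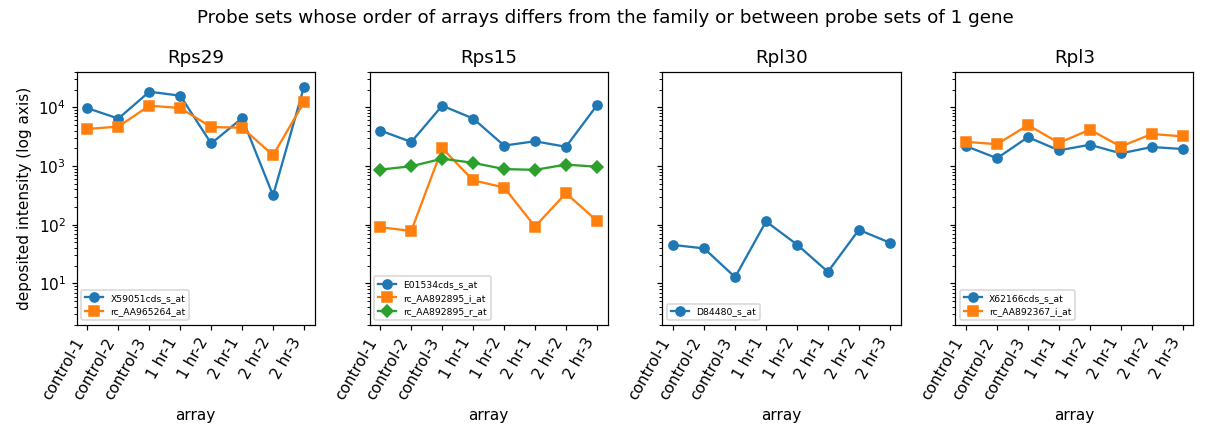
Deposited intensity on a log axis against array for each probe set of Rps29, Rps15, Rpl30 and Rpl3. Rps29 drops to 315.1 on 2 hr replicate 2 by 1 probe set and to 1522.0 by the other, and Rpl30 is lowest on control replicate 3 at 12.8.

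Genes with several probe sets were read more than once. For the 17 such genes, the median gap between the largest and smallest fitted log2 change was 0.23 for 2 hr minus control, 0.23 for 1 hr minus control and 0.12 for 2 hr minus 1 hr. Their probe sets shared a sign in 10, 8 and 14 of the 17 genes. The largest gaps from control to 2 hr were 1.09 for Rps29, 0.56 for Rpl3l, 0.55 for Rpl23 and 0.52 for Rps15. The genes with the tract at the annotated start had 10 of 14 probe sets with the 3 arrays highest, and those without it 27 of 40.

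The first comparison asked what 2 hr of isoflurane did relative to the brief control. The fitted log2 change had a median of -0.11 over the 64 members and 0.02 over all tested probe sets, with 20 members above 0 and 44 below, and 52.3% of all tested probe sets above 0. No member passed an adjusted p of 0.05 in limma, with 0 of 7770 probe sets (0.0%) called in all, and the smallest adjusted p of a member was 1.0. At an unadjusted p under 0.05 there were 0 members, against 1.79% of all tested. No member had groups that did not overlap, against 5.44% of all tested. The standard errors of the members had a median of 0.54, so a change of the size of the median was not detectable with these arrays. The lowest values after Rps29 were -0.65 (SE 0.88) for Rps16, -0.64 (SE 1.08) for the _i_at probe set of Rps15, and -0.63 (SE 0.68) for 1 of 2 probe sets of Rpl23, a further binder of Mdm2. The highest were 1.03 (SE 0.76) for Rpl19l4, 0.50 (SE 0.73) for Rpl30, 0.46 (SE 0.63) for Rpl39 and 0.31 (SE 0.73) for Rpl22. Single arrays turned several of these: without control replicate 3, Rps15 was 0.88 and Rpl30 -0.08. Without 2 hr replicate 3, Rpl39 was -0.11 and Rpl22 -0.17, and Rpl22 was -0.18 without control replicate 1. Rpl30 was -0.02 and Rps16 -0.0091 without 2 hr replicate 2. Without control replicate 3, Rps16 was -0.05 and Rpl23 -0.09, and Rpl19l4 was 0.31 without 2 hr replicate 3.

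The sign of that median depended on which arrays were compared. With control replicate 3 left out it was 0.33, with control replicate 1 left out -0.29, with control replicate 2 left out -0.43, with 2 hr replicate 3 left out -0.43, with 2 hr replicate 1 left out 0.05 and with 2 hr replicate 2 left out 0.04. After quantile normalization it was 0.06, with 36 members above 0 and 28 below, whereas centring each array on its median gave -0.19, with 9 above and 55 below. Between the high arrays of the 2 groups, 2 hr replicate 3 and control replicate 3, the median difference was -0.27, and among the other arrays, 2 against 2, it was 0.04.

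The second comparison set 1 hr against control. The median was 0.07 over the members and 0.05 over all tested probe sets, with 42 members above 0 and 22 below, and 55.8% of all tested above 0. No member passed, with 0 of 7770 probe sets (0.0%) called in all. At an unadjusted p under 0.05 there was 1 member, Rpl19l4, against 2.68% of all tested. Rpl19l4 read 21.2, 36.5 and 138.1 in the controls, 284.5 and 218.0 after 1 hr, and 77.2, 44.5 and 262.3 after 2 hr. Both 1 hr arrays lay above all 3 controls, but 2 hr replicate 3 was as high as they were. Its log2 change from control to 1 hr was 2.39 (SE 0.85), 5.25-fold, with an adjusted p of 1.0 from limma. It ran from 1.46 to 3.16 over the alternative settings. Rpl30 was the other of the 2 members with both 1 hr values above the controls, against 7.54% of all tested probe sets in that direction, with a change of 1.35 (SE 0.81). Its lower 1 hr value was 46.0 and its highest control 45.3. The change of Rpl30 ran from 0.121 to 2.0 over the alternative settings. No member had both 1 hr values below the controls, against 5.11%. The largest changes below 0 were -0.76 (SE 1.58) for Rps29, -0.44 (SE 0.50) for Rps27l, -0.41 (SE 0.54) for Rpl11 and -0.38 (SE 0.56) for Rps9. Without 1 hr replicate 2, Rps29 turned to 0.59 and Rps27l to 0.08, and without control replicate 3, Rps9 turned to 0.12. Rps2-ps1 changed by 1.28 (SE 0.59) by 1 probe set, with 53.3 on 1 hr replicate 1 and 2.3 to 10.1 on the other 7 arrays, and by 0.34 by the other. Without 1 hr replicate 1 the median over the members was -0.25, without 1 hr replicate 2 it was 0.43, and without control replicates 1, 2 and 3 in turn it was -0.11, -0.24 and 0.55. It turned to -0.05 when each array was centred on its median and was 0.17 after quantile normalization. Between the high arrays, 1 hr replicate 1 and control replicate 3, the median difference was -0.59, and among the other arrays, 1 against 2, it was 0.22.

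The third comparison set 2 hr against 1 hr. The median was -0.22 over the members and -0.03 over all tested, with 12 members above 0 and 52 below, and 47.4% of all tested above 0. No member passed, with 0 of 7770 (0.0%) called in all, and at an unadjusted p under 0.05 there were 0 members, against 2.77% of all tested. In 5 members all 2 hr values lay below both 1 hr values (7.81% of 64), against 7.82% of all tested probe sets. These were 1 probe set each of Rpl13a, Rpl3l, Rpl4, Rps15 and Rps3a. Rps3a read 3648.7 and 2371.5 after 1 hr and 2153.7, 2266.7 and 2042.8 after 2 hr, with 2377.0, 2131.3 and 4380.0 in the controls. Rpl4 read 1094.7 and 1066.4 after 1 hr and 960.2, 878.5 and 905.2 after 2 hr, with 782.2, 969.2 and 1373.6 in the controls. In Rpl4 the controls spanned the values of the exposed groups, and in Rps3a they spanned all of them but 2042.8. The lowest changes were -1.67 (SE 1.20) for the _i_at probe set of Rps15, -1.37 (SE 0.85) for Rpl19l4 and -1.22 (SE 0.59) for 1 probe set of Rps2-ps1. The highest were 0.68 (SE 0.50) for Rps27l and 0.50 (SE 0.70) for Rpl39. Rps2-ps1 turned to 0.05 without 1 hr replicate 1, and Rpl39 to -0.07 without 2 hr replicate 3 and -0.0099 without 1 hr replicate 2. The median was 0.06 without 1 hr replicate 1, -0.56 without 1 hr replicate 2, 0.02 without 2 hr replicate 1, -0.02 without 2 hr replicate 2 and -0.55 without 2 hr replicate 3. Between the high arrays, 2 hr replicate 3 and 1 hr replicate 1, the median difference was 0.30, with 40 members higher and 24 lower. Among the other arrays, 2 against 1, it was -0.33, with 18 higher and 45 lower.

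**Figure D5:**
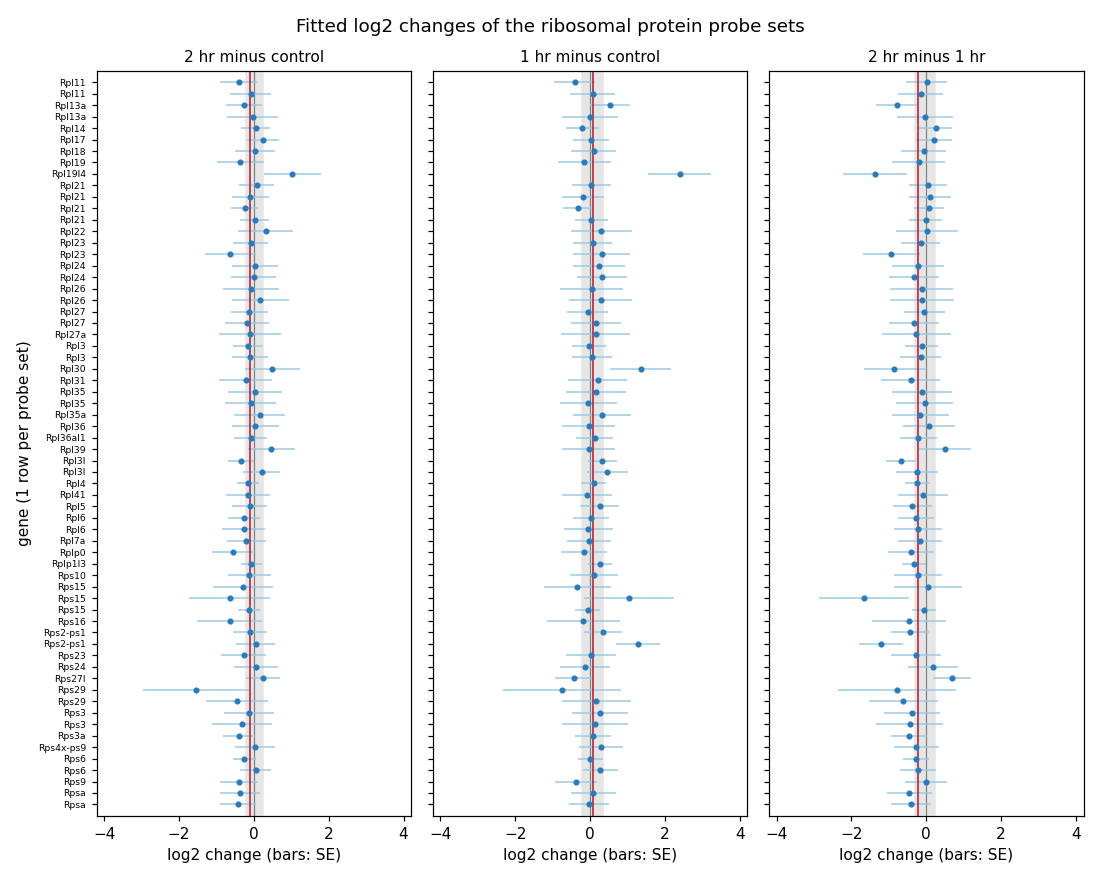
Fitted log2 change of each of the 64 probe sets in the 3 comparisons, with bars of 1 SE. The red line is the members' median (-0.11, 0.07 and -0.22) and the grey band the middle 50% of all tested probe sets; the members with the widest bars are Rps29, Rps15 and Rps16.

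The order of arrays was counted in genes that work with the ribosomal proteins, beside its share of 8.01% over all tested probe sets. The 17 probe sets of 14 mitochondrial ribosomal protein genes, which serve the separate ribosomes of mitochondria, had a range of 0.454 log2 units over the array means, and 3 of 17 (17.6%) had the 3 arrays highest. The list of other ribosomal and 5' TOP genes, such as elongation factors, had 18 probe sets of 8 of 22 genes tested, a range of 0.407, and 2 probe sets in that order (11.1%). The first of these was Naca, of the complex that meets new peptides at the tunnel exit, at 569.5, 768.6 and 1385.7, then 1033.2 and 726.4, then 753.7, 761.5 and 845.2. The lists of translation factors (24 probe sets), ribosome biogenesis (13) and mTOR and S6 kinase signalling (16) had 0 in that order. Of the 9 members with a mean log2 level of 3 to 7, 2 had the 3 arrays highest. None of the 5 lists had a probe set that passed in any of the 3 comparisons, and at an unadjusted p under 0.05 they had 0 for 2 hr minus control, against 1.79% of all tested. For 1 hr minus control, 1 mitochondrial probe set and 1 of the 5' TOP list had an unadjusted p under 0.05, against 2.68% of all tested. For 2 hr minus control, 12 of 18, 14 of 24, 8 of 13, 9 of 16 and, of the mitochondrial probe sets, 8 of 17 lay above 0, against 52.3% of all tested. The kinase gene Mtor had a log2 change of 0.42 (SE 0.31), from 198.9, 184.7 and 114.0 in the controls to 262.1, 220.1 and 173.7 after 2 hr. Rps6kb1, the S6 kinase, had 0.43 (SE 0.38), from 39.5, 41.8 and 40.7 to 60.9, 50.8 and 53.1 by 1 of its probe sets. The 2 smallest unadjusted p-values of the other lists belonged to changes of -0.67 (SE 0.34) for Mrps11, 0.38 (SE 0.24) for Mrpl3, 0.92 (SE 0.48) for Hnrnpa1 and 0.83 (SE 0.45) for Eef2. The rest were -1.14 (SE 0.66) for Nolc1, -0.43 (SE 0.46) for Polr1b, -0.70 (SE 0.38) for Eif2ak3 and 0.68 (SE 0.43) for Eif4h. Each is the reading of 1 probe set, picked by its p-value. Other probe sets gave 0.115 and 0.194 for Nolc1, 0.441 for Eif2ak3 and from -0.27 to 0.927 for Eef2. Those of Hnrnpa1, Polr1b and Eif4h had the same sign as the values given.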

How the data were processed

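The authors deposited 1 linear intensity per probe set and array, and per the deposited values the 2% trimmed means were 150.17 to 150.32, so no further scaling was applied. Neither software nor scaling target is stated in the labels or the file. Intensities were floored at the 20th percentile (9.1, or 3.19 as log2) and log2 was taken. Of 8740 probe sets that were not controls, the 7770 above the floor on at least 2 of 8 arrays were tested, and 970 were not. Of the 8740, 7006 had 1 gene symbol in the platform annotation, 308 several and 1426 none. Groups were compared with limma 3.58.1 in R 4.3.3 (lmFit, contrasts.fit and eBayes with trend, 1 mean per group, two-sided, Benjamini-Hochberg over 7770). The model was tested on simulated data. The number of arrays limits the precision.

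The members, lists and alternatives were chosen with earlier results of these data known. Members were named by a rule: the 4 largest changes in each direction per comparison, the 4 brightest and 4 dimmest, the 4 most and 8 least like the others, the 4 genes with the widest gap between probe sets, and members of set structural groups. For other lists it took the 2 smallest unadjusted p-values at 2 hr minus control, with 1 probe set per gene. Naca, and the members whose groups did not overlap, were named after their values were seen. Promoters came from RefSeq, assembly GRCr8.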

Additional observations from a re-analysis of the deposited data

How the results depend on the processing

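The number of members that passed was 0 in each of the 3 comparisons under every alternative that left at least 2 arrays per group. Alternatives that left 1 array in the 1 hr group are not counted here. Taking 1 probe set per gene, or only probe sets without a suffix such as _s_at, selected members from the main fit. Those 2 settings could therefore not add a member. Without the filter on low signal, 4 probe sets of the whole array passed for 1 hr minus control and 4 for 2 hr minus 1 hr. For 2 hr minus control it was 0. At an unadjusted p under 0.05 in limma, the alternatives gave at most 1, 4 and 5 members for 2 hr minus control, 1 hr minus control and 2 hr minus 1 hr. The share of all tested probe sets was not counted under those settings, so these maxima cannot be set against it. The medians depended on the arrays entered. Leaving out single replicates moved the median from -0.428 to 0.325 for 2 hr minus control, from -0.246 to 0.551 for 1 hr minus control, and from -0.555 to 0.0602 for 2 hr minus 1 hr. With a block for arrays low on the 5S ribosomal RNA control, the median for 1 hr minus control was -0.642. Control replicate 3 was then the only control in the same class as the 1 hr arrays. Between those arrays alone the median difference was -0.906. With that block the median was -0.455 for 2 hr minus control and turned to 0.128 for 2 hr minus 1 hr. In the latter, 41 members lay above 0 and 23 below. The range of the members' mean over arrays was 1.12 to 1.48 with single replicates left out, 0.355 without the 3 high arrays, and 1.04 to 1.55 under the other scalings, floors and filters.

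Correlations of deviations from the group means ran from -0.331 to 0.286 for same-numbered samples and from -0.362 to 0.397 for other pairs. With so few arrays per group, these values cannot decide whether the numbers in the titles pair the samples. With the replicate block the medians were -0.113, 0.484 and -0.600 and 0 members passed.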
